A study of Mus musculus with 57 samples.

Results

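SOX17 regions without GATA6 were the places in the genome where a SOX17 peak was called 24 h after GATA6 induction in both replicate lists and where none of the 8 GATA6 lists of induced cells, at 2, 4, 8 or 48 h, held a peak. The regions were thus chosen by measured SOX17 and GATA6 peaks, and the rule used nothing about SOX2, NANOG, GATA4 or the DNA sequence. It was set, however, with earlier results of these data known. Overlapping peaks of the 2 SOX17 lists were merged, and a merged region counted when it held a peak of both lists. Of 19253 such SOX17 regions, 3484 (18.1%) shared not a single base with a GATA6 peak of any of the 8 lists and are called GATA6-free regions here. A peak in 1 SOX17 list alone would have given 8482 GATA6-free regions from the first list and 16422 from the second. The other 15769 overlapped a GATA6 peak by at least 1 bp in at least 1 list and are called GATA6-shared regions. GATA6-free means free of a called peak at these 4 times, since GATA6 was not mapped at 24 h, when SOX17 was.

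All libraries came from mouse KH2 embryonic stem (ES) cells, recorded as strain C57BL/6, that carried a single transgene copy (TRE:GATA6-DSREd2) from which doxycycline drives GATA6 together with a red fluorescent protein. Cells at 0 h had been kept in 2i medium, which holds ES cells in a naive state. For all later times the cells were moved to serum medium with doxycycline, and for 24 and 48 h the drug was present for the first 12 h only, so that medium and GATA6 changed together between 0 h and the induced times. CUT&RUN was performed on 100000 cells a replicate, with antibodies against SOX17 and GATA4 at 24 h, GATA6 at 0, 2, 4, 8 and 48 h, and SOX2 and NANOG at the first 4 of these times, with 2 lists in each of these 15 groups. The GATA6 lists at 4, 8 and 48 h are called by their recorded time, although their peaks carry names of other times, which leaves the choice of regions untouched because all 8 lists were used together. In CUT&RUN, an antibody bound to a chromatin protein guides a nuclease that releases the DNA around it for sequencing. The study states that replicates were run independently but not whether they came from separate cultures, so p-values measure the spread between lists, which may be technical.

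SOX17 is an SRY-related HMG-box factor that binds the minor groove of DNA and bends it, and it is one of the factors that primitive endoderm (PrE) cells switch on after GATA6. In the early embryo the PrE lines the blastocyst cavity, while the neighbouring epiblast (Epi) keeps SOX2 and NANOG. SOX2 belongs to another branch of the SOX family and recognises nearly the same short DNA word as SOX17. With OCT4, SOX2 prefers a composite motif with a base between the SOX word and the octamer part, and SOX17 prefers a compressed form of it that lacks this base. GATA4 and GATA6 are related zinc-finger factors that bind the word GATA.

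The windows that follow show the DNA under some of the strongest GATA6-free regions, 200 bases around the SOX17 summit on the plus strand of GRCm38.p6 (RefSeq), the build of the files. The first 4 are the strongest members outside untranslated regions, with 1 chromosome not shown, whose window holds the SOX word CATTGT, with CATTGT or its reverse complement ACAATG in capitals.
Slc44a5: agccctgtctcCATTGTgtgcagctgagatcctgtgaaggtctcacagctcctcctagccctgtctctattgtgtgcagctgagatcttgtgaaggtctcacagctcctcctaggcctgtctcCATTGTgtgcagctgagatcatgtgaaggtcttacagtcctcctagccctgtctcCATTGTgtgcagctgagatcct
Fbxo22: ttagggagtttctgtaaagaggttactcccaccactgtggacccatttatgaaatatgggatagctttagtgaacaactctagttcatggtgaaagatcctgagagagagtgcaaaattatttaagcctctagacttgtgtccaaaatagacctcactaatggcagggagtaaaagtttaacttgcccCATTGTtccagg
Ap1s1: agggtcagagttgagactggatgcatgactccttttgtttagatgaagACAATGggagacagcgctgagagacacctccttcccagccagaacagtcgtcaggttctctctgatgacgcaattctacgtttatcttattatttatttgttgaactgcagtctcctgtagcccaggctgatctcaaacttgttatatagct
Gzmm: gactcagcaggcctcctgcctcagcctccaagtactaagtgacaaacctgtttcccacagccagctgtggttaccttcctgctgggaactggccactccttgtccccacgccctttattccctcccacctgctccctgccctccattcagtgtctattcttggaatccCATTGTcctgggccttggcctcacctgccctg
The Slc44a5 window (chr3:154072060-154072259) lay in an intron of that gene, 98724 bp downstream of its TSS, and held 3 copies of CATTGT in a repeated unit. The window named after Fbxo22 (chr9:55236788-55236987) lay in an intron of the neighbouring gene Nrg4, that named after Ap1s1 (chr5:137051416-137051615) was intergenic, and that named after Gzmm (chr10:79687640-79687839) lay in an intron of Cdc34. Each of these 3 held CATTGT once.

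The next windows belong to the 3 strongest members, by the same rule, with the compressed SOX and OCT4 word TTGTATGC, which is in capitals here on either strand.
Socs1: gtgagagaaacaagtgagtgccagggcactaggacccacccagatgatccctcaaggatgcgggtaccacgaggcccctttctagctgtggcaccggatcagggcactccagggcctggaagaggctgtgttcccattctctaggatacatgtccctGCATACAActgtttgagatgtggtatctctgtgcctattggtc
Cartpt: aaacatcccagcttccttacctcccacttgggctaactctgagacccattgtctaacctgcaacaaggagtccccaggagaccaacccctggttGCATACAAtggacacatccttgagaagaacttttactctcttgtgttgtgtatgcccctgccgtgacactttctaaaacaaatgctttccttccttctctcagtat
Cd247: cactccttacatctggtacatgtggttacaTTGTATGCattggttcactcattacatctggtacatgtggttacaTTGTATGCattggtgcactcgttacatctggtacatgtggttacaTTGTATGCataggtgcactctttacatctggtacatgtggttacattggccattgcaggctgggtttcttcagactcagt
The Socs1 window (chr16:10764158-10764357) and the Cartpt window (chr13:99804196-99804395) were intergenic, 21278 bp and 96345 bp downstream of the TSS they are named after. The Cd247 window (chr1:165854813-165855012) lay in an intron of Cd247 and held the compressed word 3 times, again in a repeated unit. None of the 3 regions had a SOX2 or a NANOG peak in any list.

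GATA6-free regions were on the weak side of the SOX17 regions, without being confined to weak peaks. The fold of a peak is its summit pileup over the local background, with the same constant added to both, as the peak caller gave it. In the first SOX17 list the median fold was 5.37 at GATA6-free regions and 6.33 at GATA6-shared regions, and in the second list the medians were 5.88 and 7.33. The difference between classes had the same direction in both lists, and SOX17 peaks chose the regions, so it is given without a test. The summit held a median of 14 fragments in the first list and 19 in the second at GATA6-free regions, against 18 and 25 at GATA6-shared regions. When all SOX17 regions were divided into 5 groups of equal number by their mean fold, the share of GATA6-free regions was 26.3%, 22.9%, 19.7%, 12.7% and 8.85% from the weakest to the strongest group. The strongest group thus still held 341 GATA6-free regions, with mean folds from 10.5 to 65.5. GATA6-free regions were also narrower, with a median width of 462 bp against 591 bp.

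At the edge of the rule, 108 GATA6-free regions lay within 100 bp of a GATA6 peak of the 8 lists, and their median SOX17 fold (the mean of both lists) was 4.87. On the other side, 24 GATA6-shared regions overlapped GATA6 peaks by 20 bp at most and had a median SOX17 fold of 4.89. The median distance from a GATA6-free region to the nearest GATA6 peak was 3257 bp, and 797 of them (22.9%) were more than 10 kb away. A further 1810 SOX17 regions had a GATA6 peak in exactly 1 of the 8 lists, and for 860 of these that list was the first one at 2 h, the longest, with 79358 peaks.

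SOX2, NANOG and GATA4 were all scarce at GATA6-free regions compared with the other SOX17 regions. Of the 3484 regions, 2236 (64.2%) had no peak in any of the 18 lists of these 3 proteins, against 1604 (10.2%) of the GATA6-shared regions and 19.9% of all SOX17 regions. A SOX2 peak in at least 1 of 8 lists was present at 997 (28.6%), where all SOX17 regions gave 72.9%. SOX2 and NANOG both had a peak, in at least 1 list each, at 271 (7.78%) against 54.6%. For NANOG the number was 394 (11.3%) against 57.8%, and for GATA4 it was 182 (5.22%) against 26.4%. The scarcity was graded by the number of induced GATA6 lists with a peak. With 1, 2 and 8 such lists, none of the 3 proteins had a peak at 34.5%, 23.6% and 0.651% of regions. SOX2 was in at least 1 list at 54.1%, 62.8% and 95.7%, and GATA4 at 9.94%, 15.5% and 80.3%. NANOG was at 41.9% with 2 lists and 83.7% with 8. For SOX2 and GATA4, regions with 1 list thus lay between GATA6-free and all GATA6-shared regions.

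SOX2 and NANOG are the pluripotency factors of the Epi. The 0 h SOX2 lists covered 13.6% and 11.1% of GATA6-free regions, the 2 h lists 4.82% and 12.1%, those at 4 h 12.5% and 4.91%, and the 8 h lists 2.58% and 1.92%. The 8 h lists were the lowest and stood apart from the other 6, whereas the 2 lists at 2 h and those at 4 h differed from each other more than the means of 0, 2 and 4 h did. At GATA6-shared regions the 8 SOX2 lists covered between 37.3% and 67.8%, so that its lowest list there was above the highest at GATA6-free regions. The mean difference over the 8 lists was -40.1 percentage points (lower at GATA6-free regions in 8 of 8 lists; exact paired permutation test over lists, two-sided p = 0.00781, the smallest it can give, and 0.0156 after Benjamini-Hochberg adjustment over 4 tests). All 8 lists were scored on the same 2 sets of regions, so this p-value measures agreement between lists only. The paper reports GATA6 at most Epi sites bound by NANOG and SOX2, so the direction could be foreseen from the choice of regions. Both 0 h lists together called SOX2 at 258 GATA6-free regions (7.41%), where 31.8% of all SOX17 regions were called, and both 8 h lists together at 24 (0.689%), where 23.4% of all SOX17 regions were.

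NANOG covered 1.18% and 2.41% of GATA6-free regions in the 0 h lists, 7.66% in the first and 73 regions in the second 2 h list, 1.00% and 1.09% at 4 h, and 0.344% and 0.230% at 8 h. The highest value came from the longest NANOG list, the first at 2 h with 52285 peaks, and the lowest from the shortest, the second at 8 h with 2255. At GATA6-shared regions the NANOG lists covered between 4.98% and 61.2%. The mean difference was -24.5 points, lower at GATA6-free regions in 8 of 8 lists (exact paired permutation test, two-sided p = 0.00781, adjusted p = 0.0156). As for SOX2, the direction could be foreseen and the p-value measures agreement between lists only. Both 2 h lists together called NANOG at 33 GATA6-free regions (0.947%), where 32.4% of all SOX17 regions were called, and none was in both 8 h lists, against 1.67%.

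Over the 4 times neither share passed its test. The SOX2 share at GATA6-free regions was 12.4% ± 1.77 (SD, n = 2 lists) before induction, then 8.45% ± 5.13 at 2 h, 8.71% ± 5.38 by 4 h and 2.25% ± 0.467 by 8 h (exact permutation of the 8 lists over the 4 times, adjusted p = 0.152). The NANOG share was 1.79% ± 0.873, 4.88% ± 3.94, 1.05% ± 0.0609 and 0.287% ± 0.0812 (exact permutation test, adjusted p = 0.152). Such an exact permutation test can go down to p = 0.00952. The NANOG test reached this value without the second NANOG list at 2 h, without the first GATA6 list at 2 h (a change of -2.68 points from 0 to 8 h in place of -1.51) and with the regions of the second SOX17 list alone, and it gave p = 0.0190 with those of the first SOX17 list alone and p = 0.0381 without the second GATA6 list recorded at 8 h (exact permutation tests), so its outcome rested on single lists. The SOX2 lists grew shorter between 4 and 8 h, from 45340 and 24617 peaks to 14055 and 11540, and shares from lists of equal length follow further on.

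GATA4, a further PrE factor, covered 4.62% of GATA6-free regions in the first 24 h list and 1.55% in the second. GATA6-shared regions had 28.3% and 18.6%, above GATA6-free regions in both lists. The difference was -20.4 points ± 4.66 (SD, n = 2 lists), and 2 lists allow no test. Both lists called GATA4 at 33 GATA6-free regions (0.947%), where 13.1% of all SOX17 regions were called. GATA6 itself had few peaks before induction, 86 and 882, which touched 0 and 1 of the GATA6-free regions.

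**Figure D1:**
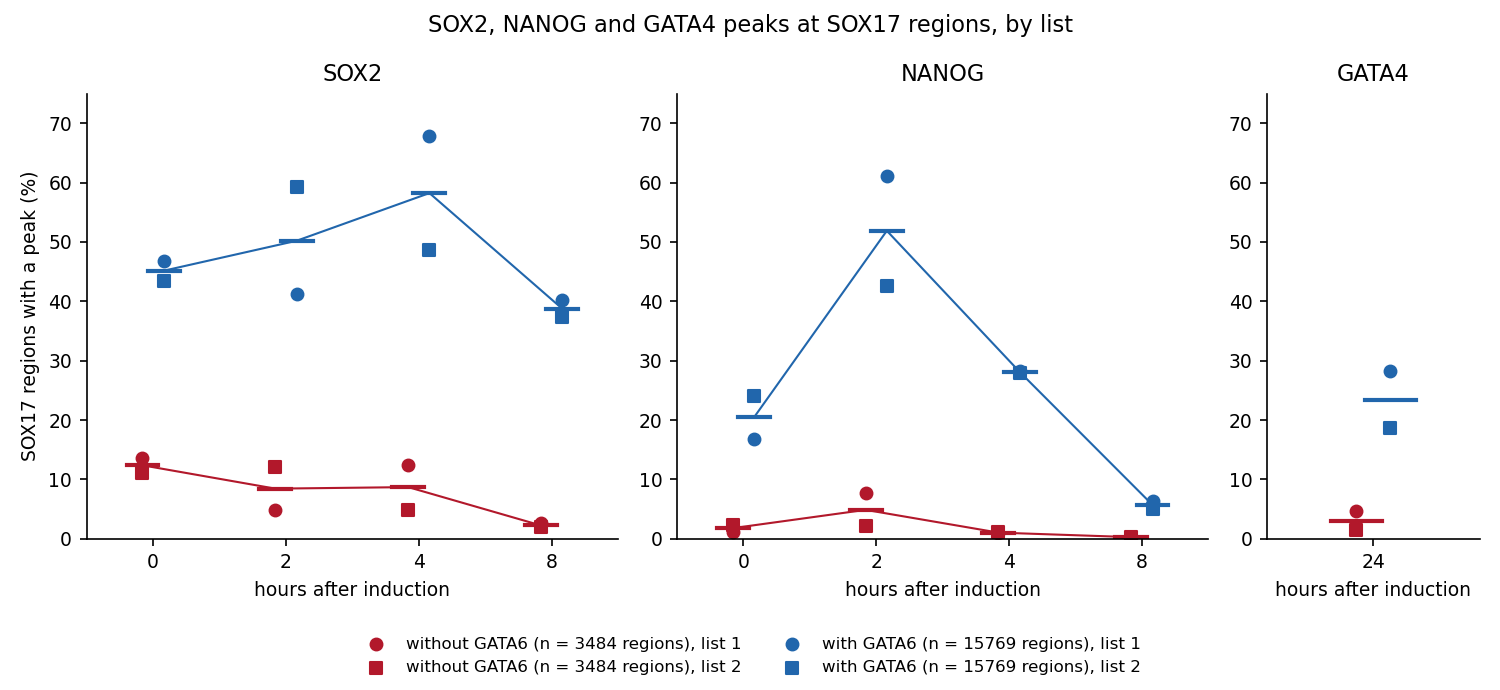
Percent of SOX17 regions with a SOX2, NANOG or GATA4 peak (vertical axis) in each list by hours after induction (horizontal axis), for 3484 regions without GATA6 (red) and 15769 with GATA6 (blue), where circles and squares are the first and second list and bars their mean. The red SOX2 points run from 13.6% at 0 h to 1.92% at 8 h and stay below every blue point, which are at 37.3% or more.

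Sites that SOX2 held before induction were followed through the later lists in both classes. SOX2 was present in both 0 h lists at 258 GATA6-free regions. Of these, 86 (33.3%) and 148 (57.4%) had a SOX2 peak in the 2 lists at 2 h, 156 (60.5%) and 88 (34.1%) at 4 h, and 46 (17.8%) and 37 (14.3%) at 8 h. At the 5868 GATA6-shared regions with SOX2 in both 0 h lists, the matching values were 72.0% and 88.4% at 2 h, 91.4% and 74.1% at 4 h, and 59.9% and 56.3% at 8 h. In each of the 6 induced lists the share was lower at GATA6-free regions. By 8 h, 195 of the 258 (75.6%) had no SOX2 peak in either list, against 29.3% of the GATA6-shared regions.

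These GATA6-free regions had begun with weaker SOX2 peaks, with median 0 h SOX2 folds of 6.61 and 6.72 in the 2 lists against 8.48 and 8.34 at GATA6-shared regions. Among the regions with the strongest 0 h SOX2 (the upper of 3 groups of equal number, mean fold from 10.6 upwards), 38 were GATA6-free. Of these, 8 (21.1%) had a SOX2 peak in the first 8 h list and 8 (21.1%) in the second, against 76.0% and 75.6% of the 2004 GATA6-shared regions. In the lower group, with mean folds up to 6.86, the 8 h values were 13.3% and 7.69% of 143 GATA6-free regions against 43.6% and 38.9%. The middle group gave 24.7% and 23.4% of 77 GATA6-free regions against 59.3% and 53.5%. The lower share thus appeared in each list within all 3 groups as well. The groups are broad, the upper one reaching a mean fold of 68.9, so SOX2 folds within a group may still differ between the classes. The first 0 h SOX2 summit lay within 100 bp of the SOX17 summit at 64.0% of the 258 regions, near the 57.4% at GATA6-shared regions.

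**Figure D2:**
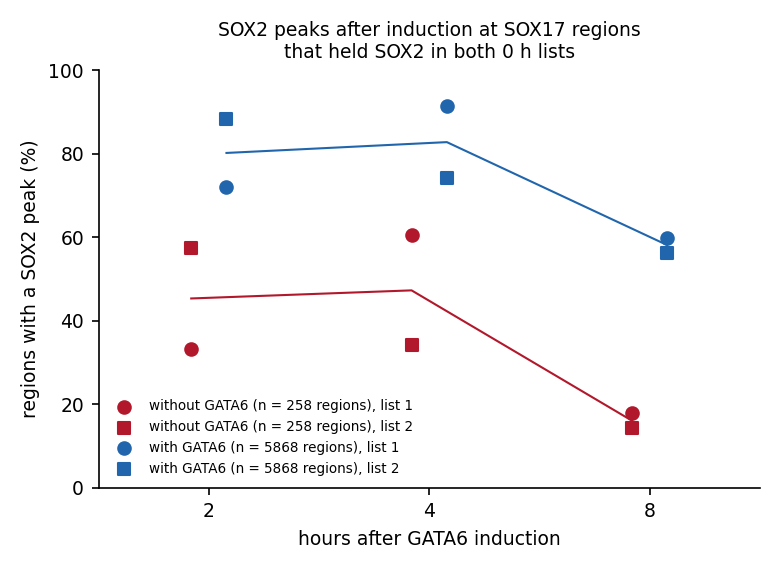
Percent of regions with a SOX2 peak (vertical axis) at 2, 4 and 8 h (horizontal axis) among SOX17 regions that had SOX2 in both 0 h lists, for 258 regions without GATA6 (red) and 5868 with GATA6 (blue), with circles and squares for the 2 lists and lines through their means. At 8 h the red points are at 17.8% and 14.3% and the blue points at 59.9% and 56.3%.

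When every SOX2 list was cut to its 11540 strongest peaks, the number of the shortest list, the order of the times looked different. The 0 h lists then reached 162 and 159 GATA6-free regions, the 2 h lists 48 and 40, the 4 h lists 67 and 42, and the 8 h lists 65 and 67. Both 0 h lists stood above all 6 induced lists, and the 8 h lists were no longer the lowest. With equal list lengths the mean was 4.61% ± 0.0609 (SD, n = 2 lists) at 0 h against 1.26% ± 0.162 at 2 h, 1.56% ± 0.507 at 4 h and 1.89% ± 0.0406 at 8 h (exact permutation test over times, p = 0.0667). At GATA6-shared regions the equal lists gave 27.5% ± 0.785 before induction, then 27.6% ± 0.529 at 2 h, 33.5% ± 1.59 by 4 h and 36.8% ± 0.780 by 8 h, so the 0 h value was there among the lowest. The log2 ratio of the share at GATA6-free regions over that at GATA6-shared regions was -2.58 at 0 h and between -4.46 and -4.28 at the induced times. With lists of full length this log2 ratio was lower at 8 h than at 0 h by 2.25 and the test over times gave p = 0.0381, but with equal lengths it gave p = 0.124 (exact permutation tests, looked at only after the shares were known). It also missed 0.05 without either SOX2 list at 0 h or at 8 h, the second SOX2 list at 2 h or at 4 h, the second SOX17 list or the second GATA6 list recorded at 8 h, with p from 0.0571 to 0.143 (exact permutation tests).

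The 20 strongest GATA6-free regions, with mean SOX17 folds from 28.5 to 65.5, mostly lacked SOX2 and NANOG. Of these 20, 7 had a SOX2 peak in at least 1 of 8 lists, where 28.6% of GATA6-free and 72.9% of all SOX17 regions did, and 1 had a NANOG peak, against 11.3% and 57.8%. GATA4 had a peak in at least 1 list at 5 of them (25.0%), against 5.22% of GATA6-free and 26.4% of all SOX17 regions. Both lists called it only at the region in an intron of Xpo7 (nearest TSS Npm2), where 13.1% of all SOX17 regions had it in both. The others had it in the first list alone, the longer one with 8427 peaks. The strongest (chr12:76798201-76799149) lay in a UTR within overlapping genes Fntb and Rab15, 3120 bp upstream of Gpx2, with SOX17 folds of 75.2 and 55.8, and the nearest GATA6 peak was 331 bp away. Next came the Slc44a5 region, with 47.2 and 65.2, and the region in the Nrg4 intron, with 57.2 and 38.4. Their nearest GATA6 peaks were 7030 bp and 3634 bp away, where the median over GATA6-free regions was 3257 bp. The region upstream of Fth1 (ferritin heavy chain, which stores iron; chr19:9939868-9943351) had folds of 43.9 and 46.5, and that in an intron of Wwp2, a ubiquitin ligase (chr8:107476559-107477631), had 41.2 and 46.0. The region upstream of Il1a, an inflammatory cytokine gene (chr2:129336319-129337803), had 49.7 and 35.3 and was 38677 bp from the nearest GATA6 peak.

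The Slc44a5 region had SOX2 peaks at the earlier times. Its SOX2 folds were 24.6 and 24.6 in the 0 h lists, 6.66 and 7.44 at 2 h and 4.11 in the first 4 h list, and no SOX2 peak was called in the second 4 h list or at 8 h. The region upstream of Gm47791 (chr1:82770711-82771813), 17 bp from its TSS, had SOX2 folds of 4.36 and 5.71 at 0 h, none at 2 h, 9.90 and 8.51 at 4 h and 4.46 in the first 8 h list. The intergenic region named after Oxsm (chr14:16146413-16147173), 58426 bp from any GATA6 peak, had SOX2 folds of 13.5 and 11.7 at 0 h, 13.3 and 8.22 at 4 h and none at 8 h. At 2 h it had a SOX2 fold of 10.8 in the second list only and the single NANOG peak among the 20, with a fold of 9.10 in the first list. The peaks of these 3 regions thus followed no common course.

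**Figure D3:**
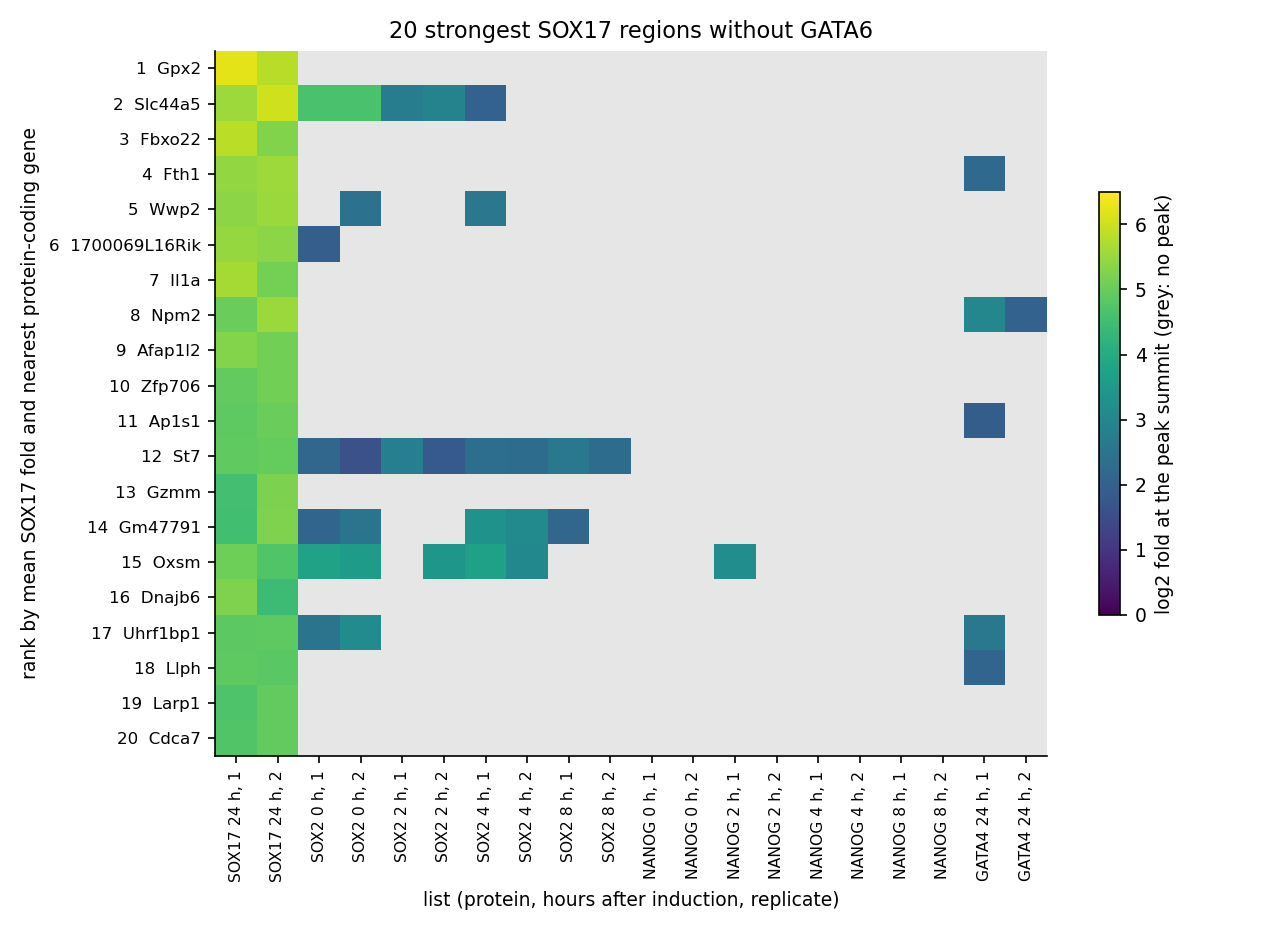
The 20 strongest SOX17 regions without GATA6 (vertical axis, by rank of mean SOX17 fold and nearest protein-coding gene) in the 20 lists of SOX17, SOX2, NANOG and GATA4 (horizontal axis), with the log2 fold of the peak as colour and grey for no peak. Most of the field outside SOX17 is grey, and the row of St7 alone has a SOX2 peak in all 8 SOX2 lists.

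Only 10 GATA6-free regions (0.287%) had a SOX2 peak in all 8 lists, where 12.1% of all SOX17 regions did. The strongest was the St7 promoter (chr6:17748962-17749727), whose summit lay in a UTR, 103 bp downstream of its TSS, with SOX17 folds of 30.3 and 31.4. In SOX2 it had folds of 4.45 and 3.03 at 0 h, of 6.95 and 3.56 at 2 h, of 5.09 and 4.93 at 4 h and of 6.12 and 4.93 at 8 h. Both 8 h values were above both 0 h values, and the 2 h values spanned them. The lists differed in depth, with a background of 0.416 and 0.575 fragments a base at 0 h and 0.290 and 0.436 at 8 h. Whether the St7 order would hold at equal depth was not tested. The next 4 by SOX17 fold were introns of Fryl (chr5:73227486-73228337) and Crybg1 (chr10:43993205-43993838), a site 115281 bp upstream of Zfp217 (chr2:170257805-170258224) and the TSS of Josd2 (chr7:44467758-44468443). The Zfp217 site had the highest SOX2 folds of the 5 at 4 h, 33.9 and 17.5, with 8.25 and 11.1 at 8 h. Its window was repetitive by the measure given further on, with 84.1% of its 12-base words repeated, and so was that of Crybg1, with 22.8%.

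NANOG was found in at least 4 of its 8 lists at 10 GATA6-free regions (0.287%), against 21.6% of all SOX17 regions. The strongest by SOX17 fold lay in an intron of Mpped2 (chr2:106750488-106751504). It had NANOG folds of 6.83 and 15.2 at 0 h and 6.59 and 8.62 at 2 h, 7.24 in the second 4 h list and no peak at 8 h. SOX2 had folds of 13.1 and 15.2 at 0 h, of 6.72 and 13.6 at 2 h and of 9.25 and 13.5 at 4 h, again with no peak at 8 h. Of the next strongest, those named after Map1s, Nudcd2 and Gm10358 each had NANOG in both lists at 0 h and both at 2 h and in none at 4 or 8 h. In the Nudcd2 intron (chr11:40737383-40737861) SOX2 had folds of 21.6 and 22.4 at 0 h, then of 6.69 and 11.4 at 2 h, and no SOX2 peak was called at 4 or 8 h.

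Of the 33 GATA6-free regions with GATA4 in both lists, the strongest lay in an intron of Xpo7 (chr14:70678740-70680225; nearest TSS Npm2), with SOX17 folds of 32.2 and 46.0 and GATA4 folds of 7.98 and 4.13. The next were intergenic sites named after Prep, Kif26a and Fam189a1 and an intron of Pfkl, a glycolytic enzyme. Their GATA4 folds were 4.38 and 6.60 (Prep), 5.67 and 10.9 (Kif26a), 8.75 and 7.12 (Fam189a1), and 4.07 and 7.51 (Pfkl). Of these 5 regions, only that of Fam189a1 had any SOX2 peak (2 lists), and none had NANOG.

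Regions free of every called GATA6 peak lay farther from promoters than GATA6-shared regions, an order that turned when only the top 10000 GATA6 peaks of each list were used. The median distance from the SOX17 summit to the nearest protein-coding TSS was 19114 bp against 15534 bp. Of the GATA6-free regions, 396 (11.4%) lay within 1 kb of a TSS, against 21.2% of GATA6-shared regions, and 845 (24.3%; exact 95% binomial interval 22.8 to 25.7) lay within 5 kb, against 32.1%. With those top peaks, the shares within 5 kb were 36.6% of 10447 regions without and 23.6% of 8806 with GATA6, and within 1 kb 25.3% and 12.4%. Among the regions with a peak in all 8 GATA6 lists, 10.0% lay within 1 kb, below the share at GATA6-free regions. With all peaks, the gap within 1 kb was seen in each of the 5 groups of SOX17 fold, from 17.5% against 25.7% in the weakest to 2.93% against 14.7% in the strongest. By annotation (GENCODE vM21), 45.2% of GATA6-free summits lay in introns of protein-coding genes and 41.1% were intergenic, against 39.9% and 44.8% of GATA6-shared summits. The windows were less often rich in CpG (over 0.6 of the number their base composition gives, with over 50% G+C), 8.41% against 15.3%, with nearly the same median G+C content of 49.0% and 50.0%. With the top 10000 GATA6 peaks these orders turned too, to 40.0% against 41.9% in introns of protein-coding genes and 19.4% against 7.82% rich in CpG. The strongest promoter members after St7 and Gm47791 lay near H3f3b, which encodes a replacement histone (12.1 and 19.2 in SOX17 fold), Wdr18 (10.6 and 16.6) and Vps37c (14.8 and 10.8).

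The SOX word was more frequent at GATA6-free than at GATA6-shared regions, and the GATA word less so. CATTGT, searched on both strands in the 200 bases around the summit as in the windows printed above, was present at 1243 GATA6-free regions (35.7%, exact 95% interval 34.1 to 37.3) against 22.7% (22.1 to 23.4) of GATA6-shared and 25.1% of all SOX17 regions. Windows of the same length 1 kb to either side held it in 10.4% and 10.3%, nearly the same in both classes. With windows on the summits of the first list alone the shares were 32.3% and 20.5%, and on those of the second list 36.5% and 23.4%. The share grew with SOX17 fold in both classes, from 29.5% to 44.3% at GATA6-free and from 15.7% to 32.2% at GATA6-shared regions, and was higher at GATA6-free regions in each of the 5 groups of fold, by 12.1 to 17.8 points. With the top 10000 GATA6 peaks of each list the shares were 26.2% and 23.8%. Among the 20 strongest of each class the order was the other way, at 5 GATA6-free regions (25.0%), with mean folds from 28.5 to 65.5, and 9 GATA6-shared regions (45.0%), with mean folds from 63.5 to 180.5.

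A GATA word (AGATAA or AGATAG or TGATAA or TGATAG, either strand) was present at 33.1% of GATA6-free regions, close to the 29.4% in their windows 1 kb away. At GATA6-shared regions it was present at 44.9% against 30.2% in the flanks. With the top 10000 GATA6 peaks the shares were 30.2% without and 57.7% with GATA6. SOX17 regions with a GATA6 peak in 1 to 4 lists had a GATA word at 31.7% to 34.0%, like the GATA6-free regions, and the share was 37.9%, 50.3%, 59.8% and 72.5% with 5, 6, 7 and 8 lists. The SOX word took the other course, from 35.7% with no list to 26.9% with 1, 27.1% with 2 and between 20.2% and 24.0% with 3 or more. GATA6-free regions with GATA4 in both lists held a GATA word in 15 of 33 cases (45.5%), against 67.8% of 2493 GATA6-shared regions with GATA4 in both lists. Without a GATA4 peak the shares were 32.5% at GATA6-free and 38.2% at GATA6-shared regions.

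**Figure D4:**
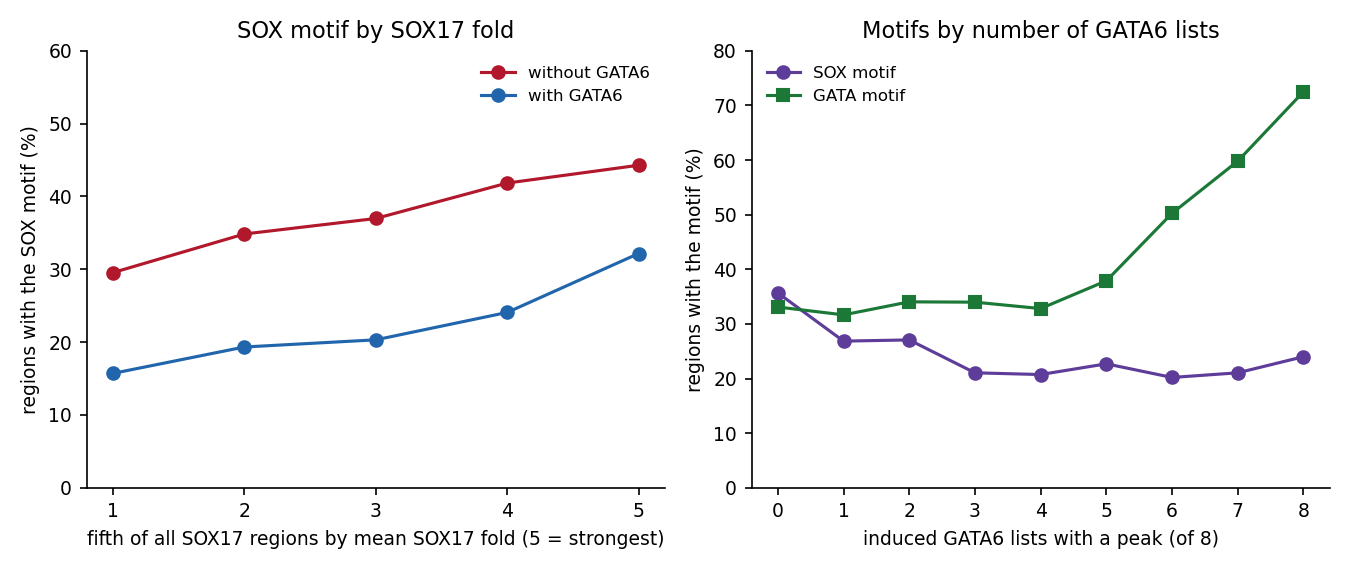
Left, percent of regions with the SOX word (vertical axis) in 5 groups of equal number by mean SOX17 fold (horizontal axis), without GATA6 (red) and with GATA6 (blue). Right, percent with the SOX word (purple) and a GATA word (green) by the number of induced GATA6 lists with a peak (horizontal axis); the GATA word goes from 33.1% with no list to 72.5% with 8, and the SOX word from 35.7% to 24.0%.

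The compressed SOX and OCT4 word TTGTATGC was at 58 GATA6-free regions (1.66%, interval 1.27 to 2.15) against 0.837% of GATA6-shared regions, 0.987% of all SOX17 regions and 0.416% of the flanks. GATA6-shared regions with a GATA6 peak in 1 list had it at 1.38% and those with 5 lists at 1.40%, both inside that interval. With the other numbers of lists it was at 0.487% to 0.851%. The canonical word with the extra base, TTGTNATGC, was at 21 (0.603%) against 0.989%, and the octamer ATGCAAAT at 70 (2.01%) against 2.89%. Of the 58 regions with the compressed word, 2 had a SOX2 peak in any list, where 28.6% of all GATA6-free regions did. A NANOG peak was at 2, against 11.3% of all GATA6-free regions. Of the 132 GATA6-shared regions with the word, 39 had no SOX2 peak in any list. At regions with SOX2 in both 0 h lists the compressed word was at 0 of 258 GATA6-free regions and at 32 of 5868 GATA6-shared regions (0.545%). By counting error over regions alone, 0 of 258 allows a share of up to 1.16%. Of the 62 matches of the compressed word at GATA6-free regions, 13 overlapped a CATTGT match, so the words were not counted apart. The GC-box word GGGCGG of SP and KLF factors was at 11.7% against 18.8%, the AP-1 words TGAGTCA or TGACTCA at 3.21% against 5.49%, the TEAD word GGAATG at 14.6% against 17.5%, and the CTCF word CCANNAGGG at 4.62% against 5.21%. The HNF1 word GTTAATNAT was at 1.06% against 0.799%, with overlapping intervals, which cover counting error over regions and not the spread between lists. With the top 10000 GATA6 peaks the order turned for the GC-box word (21.8% against 12.5%), the CTCF word (5.15% against 5.04%) and the HNF1 word (0.680% against 1.04%), and the compressed word was at 1.06% against 0.897%.

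Matches of the SOX word gathered around the SOX17 summit without peaking on it. In bins of 50 bp there were 12.3 matches per 100 GATA6-free regions from 100 to 50 bp before the summit and 12.6 from 50 to 100 bp after it, against 10.2 and 11.1 in the 2 bins next to the summit. Beyond 250 bp the number was between 2.53 and 3.56. GATA6-shared regions had the same shape at a lower level, with 7.44 and 7.82 in the higher bins.

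**Figure D5:**
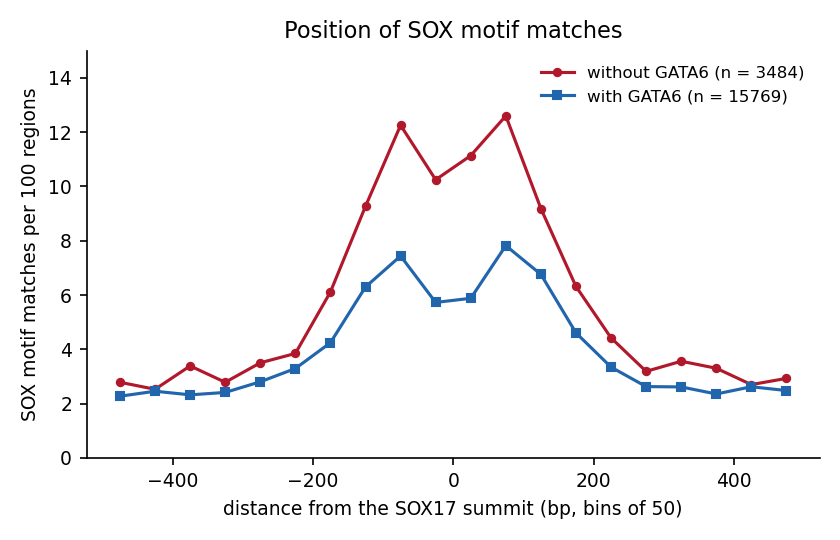
Number of SOX word matches per 100 regions (vertical axis) in 50 bp bins by distance from the SOX17 summit (horizontal axis), for 3484 regions without GATA6 (red) and 15769 with GATA6 (blue). The red curve has shoulders of 12.3 and 12.6 on both sides of the summit and ends at 2.78 and 2.93 at the edges.

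Sequence repeated within the window was more common among GATA6-free regions. A window was called repetitive when at least 20% of its 12-base words occurred more than once within it. This held for 136 GATA6-free regions (3.90%) against 1.21% of GATA6-shared regions, and for 34 of the 341 in the strongest group of SOX17 fold (9.97%) against 1.31%. Among the 20 strongest it held for 4 of the GATA6-free regions (those of Slc44a5, Npm2, Zfp706 and Cdca7) and for none of the 20 strongest GATA6-shared regions. Outside repetitive windows the SOX word was at 36.2% of GATA6-free and 22.8% of GATA6-shared regions, and the compressed word at 1.67% and 0.847%. Windows mostly masked as repeats in the genome build were nearly as common in both classes, at 13.9% of GATA6-free and 12.7% of GATA6-shared regions. Whether reads were placed correctly in repeats was not tested.

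Of 21864 protein-coding genes, 2605 (11.9%) had their TSS nearest to at least 1 GATA6-free region, 2023 of them to just 1. For 850 genes no GATA6-shared region was nearest. The genes with most GATA6-free regions were Zfp608 with 10, Sall4 with 8, and Anapc15-ps, Arid5b, Foxo1, Rffl and Rreb1 with 7 each. They also had GATA6-shared regions, 15 for Zfp608, 12 for Sall4, 6 for Anapc15-ps, 20 for Arid5b, 17 for Foxo1, 3 for Rffl and 15 for Rreb1, so that Anapc15-ps and Rffl had more GATA6-free than GATA6-shared ones. Socs1, an inhibitor of cytokine signalling, had 6 GATA6-free regions and 1 GATA6-shared region, as did Tnpo1, a nuclear import receptor, both named after their values were seen.

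The developmental gene lists differed in how many of their genes were nearest to a GATA6-free region, and each had more GATA6-shared regions. Of 25 PrE regulators and markers, 16 (64.0%) were nearest to a GATA6-free region, 34 regions in all, against 24 genes and 160 regions for GATA6-shared regions. Of 25 Epi and pluripotency regulators, 7 (28.0%) were, with 17 regions, against 22 genes and 124 regions. FGF and ERK pathway genes gave 7 of 20 (35.0%), Nodal and BMP genes 8 of 22 (36.4%), WNT genes 4 of 20 (20.0%) and SOX genes 3 of 19 (15.8%). A list of visceral endoderm genes gave 3 of 17 (17.6%), namely Mttp, Ttr and Amot. Trophectoderm regulators gave 2 of 13 (15.4%), and mesoderm and definitive endoderm markers 3 of 12 (25.0%). All genes gave 11.9%, and the control lists gave 5.97% of 67 replication-dependent histone genes and 15.2% of 79 ribosomal protein genes. GATA6-shared regions were nearest to 96.0% of the PrE genes, 88.0% of the Epi genes and 33.7% of all genes. Over all genes, 3484 SOX17 regions were GATA6-free and 15769 GATA6-shared, so 18.1% were GATA6-free. Neither the PrE nor the Epi list had a larger part of its SOX17 regions GATA6-free than that. These are counts without a test, and nearness to a TSS says nothing about which gene a region acts on.

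Among PrE genes, Foxa2, an endoderm pioneer factor, had 5 GATA6-free regions beside 15 GATA6-shared ones. The strongest (chr2:147989656-147990559), 56033 bp downstream of its TSS in an intron of a non-coding gene, had SOX17 folds of 10.7 and 13.3, with a GATA6 peak 948 bp away. The endocytic receptor gene Cubn had 4 GATA6-free and 7 GATA6-shared regions, and Foxq1, a forkhead factor, had 4 and 9. Lama1, which encodes a laminin chain of the basement membrane, had 4 and 7. Gata6 itself had 3 beside 8, the strongest of them 138551 bp upstream of its TSS with SOX17 folds of 9.90 and 8.41. Col4a2, a collagen gene of the basement membrane, had its strongest in an intron of the neighbouring Col4a1 (chr8:11267480-11268536), with folds of 7.41 and 9.44 and a SOX word.

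The Pdgfra region differed from these. Pdgfra encodes the growth factor receptor by which PrE cells are often sorted, and 50090 bp downstream of its TSS a GATA6-free region (chr5:75205809-75206349) had weak SOX17 folds of 6.24 and 4.21. SOX2 had folds of 12.7 and 13.3 there at 0 h, of 5.51 and 8.24 at 2 h and of 4.61 and 4.96 at 4 h, with no peak at 8 h. NANOG folds were 4.73 and 9.64 at 0 h and 4.32 in the first 2 h list only. Its SOX2 folds at 0 h were above those at 2 and 4 h in both lists. P4ha2, a collagen-modifying enzyme gene, was the single PrE gene with a GATA6-free region and no GATA6-shared one, 268 bp upstream of its TSS (chr11:54100599-54101112) with folds of 3.68 and 5.38.

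Among Epi genes, Sall4, a zinc-finger pluripotency regulator, stood out with 8 GATA6-free beside 12 GATA6-shared regions. Its strongest (chr2:168790252-168791813), 24124 bp upstream of the TSS, had SOX17 folds of 18.9 and 24.6 and SOX2 folds of 5.78 and 4.69 at 0 h, with no SOX2 peak at any later time. The region 75866 bp downstream of Klf4, a naive pluripotency factor gene (chr4:55456382-55456809), had folds of 6.72 and 6.92, 2 SOX words and no SOX2 or NANOG peak. The region 7959 bp upstream of Prdm14, a repressor that guards the naive state (chr1:13134235-13135549), had 7.02 and 7.30, 2 SOX words and SOX2 in 3 lists. Pou5f1, which encodes OCT4, had a weak one 7885 bp upstream (chr17:35497910-35498266) with 4.48 and 3.53 and no other factor. Tbx3, Klf5 and Nr5a2 had SOX17 folds between 3.67 and 7.06 at their strongest. In the SOX family, Sox1, a neural factor gene, had 1 at 22322 bp upstream (chr8:12372718-12373397; 7.61 and 11.0), Sox13 had 2 (the stronger at 9.23 and 7.46) and Sox8 had 1, 101 bp upstream (5.76 and 5.18) and with the compressed word. No GATA6-free region was nearest to Sox17, Sox7, Sox18 or Sox2.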

How the data were processed

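Peak lists of 30 CUT&RUN samples were analysed, in 15 groups of 2 taken from the sample titles. A further 27 samples of the series did not enter. Following the published methods, the authors mapped paired-end reads to mm10 with Bowtie2, removed blacklisted regions, kept duplicate reads and called narrow peaks with MACS for each library against a rabbit anti-rabbit control. Each deposited list gives position, a score, the fold (a ratio of summit pileup to local background with the same constant added to both, the authors' value), −log10 p, −log10 q and summit offset. The deposited score was not used. Every peak had q at or below 0.05. The lists hold no read totals. From the deposited fold and −log10 p-value, the fragments per base taken as background were recovered, as a measure of depth: 1.23 and 1.55 for SOX17, 0.928 to 1.34 for induced GATA6, 0.865 to 1.31 for NANOG and 0.290 to 0.692 for SOX2. They could not be recovered for GATA4, whose depth is unknown.

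In the 6 GATA6 lists recorded at 4, 8 and 48 h, the peaks are named after other times. The regions do not depend on this, since all 8 induced lists were used together. The members, gene lists, motifs and tests were chosen with earlier results of these data known. Overlaps counted from 1 bp. Genes came from GENCODE vM21 on GRCm38, the build of mm10, as the nearest protein-coding TSS to the summit of the SOX17 list with the higher −log10 q. Named regions were the 20 members of highest mean SOX17 fold; the 5 strongest with SOX2 in all 8 lists, with NANOG in at least 4 lists, with GATA4 in both lists and within 1 kb of a TSS; the strongest per gene of the PrE, Epi and SOX lists; and the 5 genes nearest to most members. A region this rule names among those with NANOG is not reported here. Tests were exact permutations over lists (2520 arrangements over times, 256 sign patterns), checked on simulated data, with Python 3.11.15, NumPy 2.4.6 and SciPy 1.17.1. Binomial intervals cover counting error only.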

Additional observations from a re-analysis of the deposited data

How the results depend on the processing

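Both differences between classes kept their sign and their test under every alternative run, where the test again measures agreement between lists only. The SOX2 difference stayed between -40.5 and -26.1 points, and between -41.2 and -36.2 with 1 list left out. The NANOG difference stayed between -25.3 and -5.70 points, and between -27.4 and -20.4 with 1 list left out (exact paired permutation test, p = 0.00781 or 0.0156 throughout). The change in SOX2 share at GATA6-free regions from 0 to 8 h, -10.1 points, was between -22.1 and -2.71 points and between -13.7 and -4.96 with 1 list left out, and no alternative passed the test. The NANOG change was between -2.68 and -0.664 points with 1 list left out, with exact permutation p from 0.00952 to 0.324. It passed the exact permutation test with the top 10000 peaks of each GATA6 list (-8.85 points, p = 0.0286) and with SOX17 regions of either list (-0.577, p = 0.00952), and came to 0 with equal numbers of top NANOG peaks (p = 0.0857). The log2 ratio of SOX2 shares, added after the data were seen, was between -2.44 and -2.09 with 1 list left out. It no longer passed with a −log10 q of at least 5 in every list (-2.65), SOX17 regions of either list (-2.41), equal numbers of top peaks (-1.70) or the replicate block (-2.25, exact permutation p = 0.125).

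With the replicate number as a block, the SOX2 change stayed at -10.1 points (exact permutation p = 0.292) and the NANOG change at -1.51 points (p = 0.292), where 0.0417 is the smallest p possible. Deviations of same-numbered lists correlated between -0.0839 and 0.0183 over 12 pairs of times, so the numbers did not pair the lists. The number of GATA6-free regions was 10447 with the top 10000 GATA6 peaks per list and 20954 with SOX17 regions of either list, and between 3512 and 16422 with 1 list left out. The same 2 settings gave a GATA4 difference of -29.6 and -14.6 points (-23.7 to -15.6 with 1 list left out), a share within 5 kb of a TSS of 36.6% (above the 23.6% of GATA6-shared regions, so that the order turned) and 22.0% (21.7% to 28.1%) and a median fold ratio of 0.753 and 0.776 (0.745 to 0.835), where 0.828 was the value given. Sequence and annotation shares with the top GATA6 peaks were chosen after seeing the data. The share within 5 kb was 22.3% with GATA6 peaks widened by 500 bp, and 11.4% lay within 1 kb. The ratio of median −log10 q was 0.654. Depth limits the absence of a peak: the background recovered was 0.29 to 0.692 fragments a base in SOX2 lists and 0.287 and 0.315 in GATA6 lists at 0 h, against 0.865 upwards in the other lists where it could be read, and a GATA6-free region is one without a call at q of 0.05. Since SOX17 fold was lower there, the differences were also taken within 5 groups of SOX17 fold, at -38.8 points for SOX2, -23.8 for NANOG and -19.0 for GATA4.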
